A study of Homo sapiens and Mus musculus with 12 samples.

Results

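The genes described here encode the enzymes of glycolysis, the transporters that bring glucose into the cell and take lactate out of it, and a group of genes known to be induced when oxygen is low. They were 39 genes, listed by name, of 60675 gene identifiers counted in human cortical organoids. An ortholog was matched for all 39 by gene description among the 47729 mouse identifiers. Cortical organoids are aggregates of stem cells that differentiate in suspension toward embryonic forebrain tissue. The study asked how NOTCH2NL, a hominin-specific relative of the receptor gene NOTCH2, affects gene expression during cortical neurogenesis. Polyadenylated RNA was sequenced from 12 libraries in 4 groups of 3.

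Both human groups came from H9, an established embryonic stem cell line, and were harvested at week 4 (day 28) as pools of 5 to 10 organoids. One group was labelled WT and the other KO NOTCH2NL, and the series' design text names CRISPR/Cas9 for making both the control and the knockout lines. Each group carries 1 line code, H9_WT_E2del19 or H9_KO_E5del42, so genotype and line cannot be told apart. The labels explain neither code and do not say whether a line is 1 clone or what edit, if any, the WT line carries. Both mouse groups were stable lines of 46C, an established mouse embryonic stem cell line, harvested at day 6 as pools of 16 organoids. One carried an empty vector (EV) and the other overexpressed the cDNA NOTCH2NL-Sh_T197I (N2NL), and here too vector and line cannot be told apart. The labels do not name the promoter that drives the cDNA. No label ties the 3 pools of a group to separate cultures, so the p-values below measure only the spread between pools, which may be technical.

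Glycolysis splits glucose into pyruvate through a chain of cytosolic enzymes. Pyruvate is then either oxidised in mitochondria through pyruvate dehydrogenase or reduced to lactate by lactate dehydrogenase and exported by monocarboxylate transporters. Many of these steps can be carried out by several isozymes, of which neural progenitors, neurons and astroglia use different ones. When oxygen falls, prolyl hydroxylases of the EGLN family no longer mark the HIF alpha subunits for degradation. HIF dimers then bind DNA at core sequences such as ACGTG. They induce glycolytic genes, pyruvate dehydrogenase kinases and genes such as VEGFA and CA9. Organoids have no blood supply, and low oxygen in their interior is a known feature of such cultures.

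The human libraries held 15381409 to 16382938 counts and the mouse libraries 16781742 to 20960391. NOTCH2NL itself had 4, 5 and 3 reads in the WT libraries and 0 in each KO library, a level near the 3 counts below which a gene cannot be told from absent, and its reads are shared with near-identical copies. In mouse the authors' deposited table listed NOTCH2NL at 0 in the 3 EV libraries and at 801, 709 and 740 normalized counts in the N2NL libraries. Radial glia and neuron markers were present in both species: the summed level of 13 radial glia genes was 4553 to 5840 CPM (read counts scaled to the same library total) over the human libraries and 2024 to 2324 CPM over the mouse libraries, and that of 15 neuron genes was 4569 to 6706 and 971 to 1371 CPM. Choroid plexus markers were also present in human, where 7 genes summed to 288 to 2249 CPM in WT and 1480 to 4375 CPM in KO, most of it TTR. The 9 astroglia genes summed to 140 to 207 CPM over the human libraries. In mouse 7 pluripotency genes summed to 524 to 645 CPM and 7 endothelium and blood genes to 293 to 475 CPM. Markers of some other cells were low in the human libraries. The 9 endothelium and blood genes summed to 5.51 to 14.6 CPM. The 7 muscle genes summed to 8.03 to 12.1 CPM and the 7 pluripotency genes to 3.56 to 14.5 CPM. HBA1, MYOD1 and TDGF1 had no read in any human library, while CLDN5 (6.09 ± 2.84 CPM in WT), MYH3 (5.37 ± 0.926 CPM) and DPPA4 (7.32 ± 3.14 CPM; SD, n = 3) of the same lists were detected.

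Upstream sequences of members that were lower in KO are shown first, followed by those of some members that did not pass the test. They are stretches of 30 bases before a RefSeq gene start (GRCh38.p14), read 5′ to 3′ on the gene's strand, with ACGTG, or its reverse complement CACGT, in capitals. Where both overlap they form CACGTG, which is also the E-box sequence known to be bound by MYC and related factors. Only starts with these letters before them are shown. LDHA, TPI1, PFKP, SLC16A3 and PDK1 also have starts without them.

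LDHA chr11:18394366-18394395, + strand: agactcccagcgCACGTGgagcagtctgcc
LDHA chr11:18394470-18394499, + strand: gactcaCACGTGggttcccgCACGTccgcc
ALDOC chr17:28577116-28577145, - strand: aagtgcccggCACGTGgtaaagggattgtg
ALDOC chr17:28576907-28576936, - strand: cccccggaggagtCACGTagctctgcgaca
ENO2 chr12:6914449-6914478, + strand: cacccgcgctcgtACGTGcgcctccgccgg
TPI1 chr12:6868075-6868104, + strand: ccgtgcgccgccgCACGTagccccagactc
PFKP chr10:3069037-3069066, + strand: gccacgagcgcctACGTGatgcccggcccg
SLC16A3 chr17:82228968-82228997, + strand: gcggtgACGTGcgcgggggACGTGccgcgc
PDK1 chr2:172556060-172556089, + strand: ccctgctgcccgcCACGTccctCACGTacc

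Members that did not pass the test held the same letters. PGK1, ALDOA, GAPDH and BNIP3 are shown for comparison.

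PGK1 chrX:78104043-78104072, + strand: cggACGTGacaaacggaagccgCACGTctc
ALDOA chr16:30064373-30064402, + strand: tggcagggaggcCACGTGatccgagtcccc
GAPDH chr12:6535171-6535200, + strand: gctctgcggggtCACGTGtcgcagaggagc
BNIP3 chr10:131982040-131982069, - strand: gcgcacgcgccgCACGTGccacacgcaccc

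Searched on both strands over the 250 bases before each start, ACGTG occurred for 22 of the 34 members in the table (64.7%), against 21.7% of its 27305 genes. Other forms of the HIF core were not searched. Several members have more than 1 start. Per window, the letters stood in 39.7% of the members' 63 windows and in 18.5% of all 35116. The members' windows were also richer in C and G (median 68.4%, against 58.0% over all windows). They held a median of 23 CG pairs (C followed by G), against 11 over all windows, and ACGTG itself holds such a pair. The part of base composition in the difference was not tested. Among members, all 7 of the genes lower in KO that the table holds had the letters before at least 1 start, as did 14 of the 25 tested genes that did not pass. Per window the 2 groups were close, at 41.2% of 17 windows and 38.6% of 44. VEGFA, SLC16A1, NDRG1, SLC2A3 and BNIP3L were not matched in the table.

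In human organoids, 8 of the 39 members fell in KO and none rose. They were the glycolytic enzyme genes ALDOC, ENO2, PFKP, LDHA and TPI1, the lactate exporter gene SLC16A3, the pyruvate dehydrogenase kinase gene PDK1 and the stress-responsive gene NDRG1. Changes were tested with edgeR's quasi-likelihood test, with Benjamini-Hochberg adjustment over all 16956 genes that passed a filter on low counts and a threshold of 0.05. Of the 39 members 37 passed that filter, so the 8 genes were 21.6% of those tested. Over all tested genes 5.5% were called, 3.19% lower and 2.31% higher. Members and other lists were chosen with earlier results of these data known. The shares given here and below beside those of all genes are therefore not shares of independently chosen sets. The median log2 fold change (KO minus WT) was -0.185 over the 37 members and -0.005 over all genes, and 26 of the 37 values were below 0 and 11 above it, against 50.7 and 49.3% of all genes. The KO libraries all lay below the WT libraries for 15 members and all above them for 3 (14.8 and 14.1% of all tested genes). One or the other held for 48.6% of the members and for 28.8% of all tested genes. SLC16A3 passed the filter only through its level in WT.

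**Figure D1:**
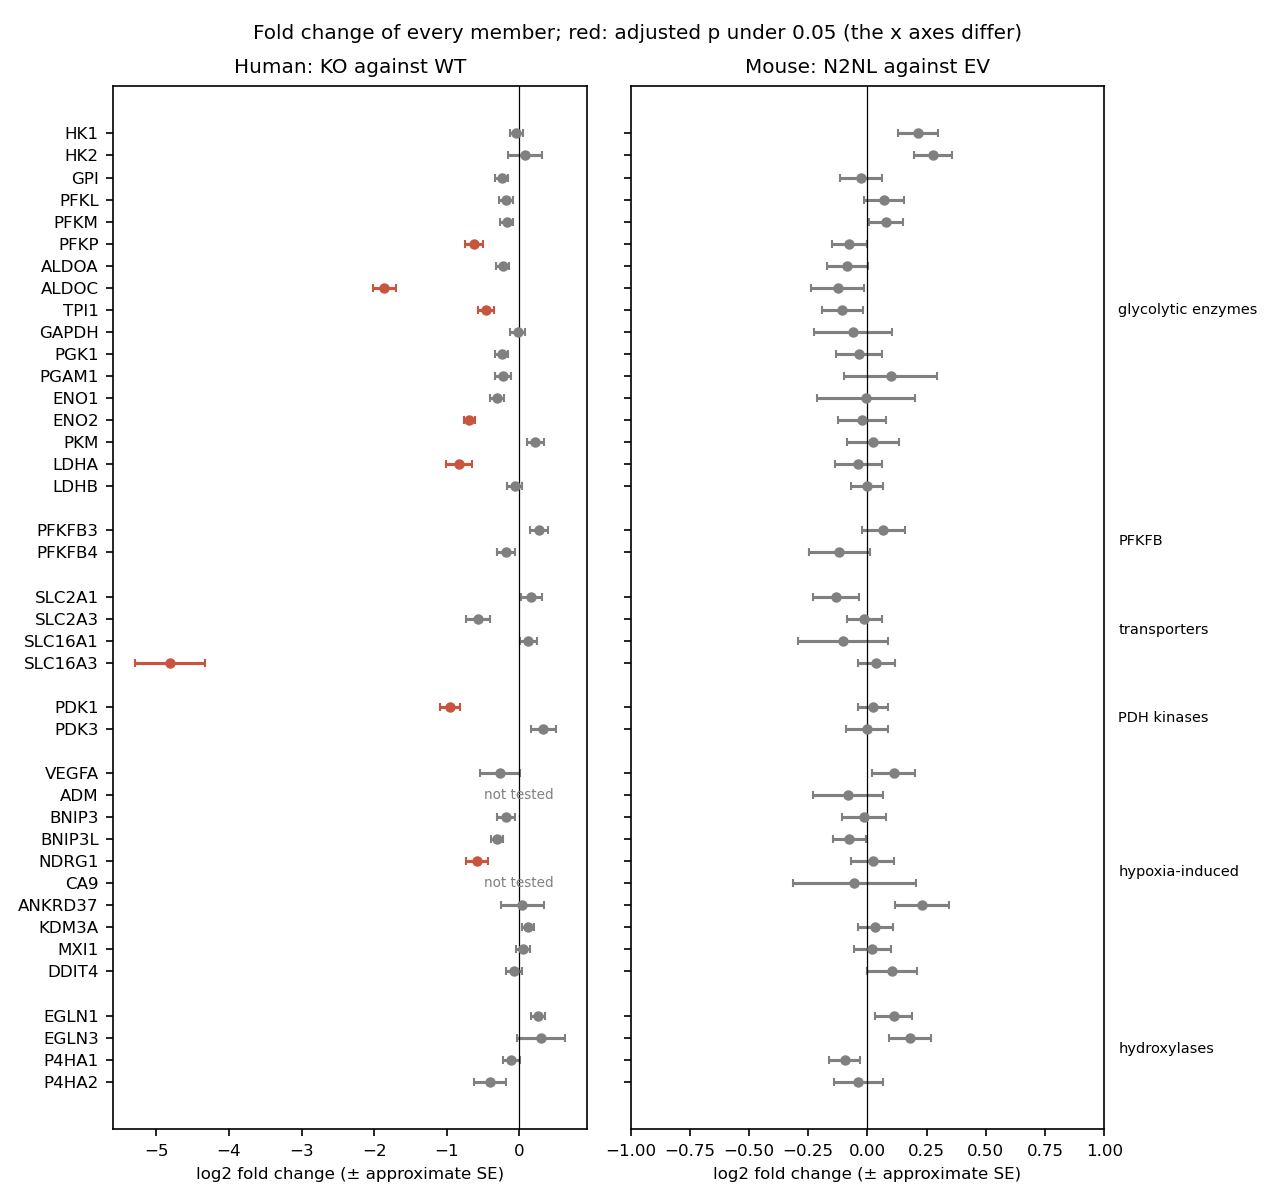
Log2 fold change with its approximate standard error for each member, in rows by role, for human KO against WT (left) and mouse N2NL against EV (right, on a narrower axis). The 8 members called in human are red and all lie left of 0. The mouse values lie between -0.13 and 0.28, and none is called.

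The first enzymes of the pathway trap glucose in the cell and commit it to breakdown. Among the hexokinase genes, which phosphorylate glucose, HK1 and HK2 differed little between KO and WT (log2 fold change -0.04 ± 0.09 and 0.08 ± 0.23). The phosphofructokinase genes encode the main control point of glycolysis. PFKP, the platelet-type isozyme, fell by 0.62 ± 0.13 on the log2 scale (edgeR adjusted p = 0.0216), from 71.2, 66.6 and 66.3 CPM in WT to 42.3, 53.3 and 37.3 CPM in KO. Every KO library was below every WT library. The liver-type PFKL and muscle-type PFKM had values of -0.18 ± 0.10 and -0.17 ± 0.09 and did not pass. PFKL measured 139, 134 and 130 CPM in WT and 123, 130.5 and 101 CPM in KO. PFKM measured 190.2, 225 and 207 CPM in WT and 174, 185 and 193 CPM in KO. The groups overlapped for both.

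Aldolase cleaves the phosphorylated sugar into triose phosphates. ALDOC, the brain-type aldolase that marks astroglia and some neurons in the mature brain, had the largest fall among the enzymes. It measured 36.2, 28.9 and 40.2 CPM in WT and 10.7, 8.52 and 9.79 CPM in KO, a mean 72.5% lower (log2 -1.86 ± 0.16, edgeR adjusted p = 2.41e-04). The widespread isozyme ALDOA measured 459.5, 498 and 527 CPM in WT and 404, 452 and 410.1 CPM in KO. Its KO libraries were also all lower, by a mean of 14.7%, but the difference did not pass (-0.23 ± 0.09, edgeR adjusted p = 0.155).

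TPI1, which interconverts the triose phosphates, fell by 0.46 ± 0.11 (edgeR adjusted p = 0.0377), from 443, 386 and 495 CPM in WT to 310, 355 and 300.4 CPM in KO. The lowest WT library and the highest KO library lay close together. GAPDH, the next enzyme and a common reference gene, gave -0.02 ± 0.10, with 3470, 3405 and 4031 CPM in WT and 3935, 3356 and 3441 CPM in KO. The groups overlapped fully. PGK1 and PGAM1, which follow, were lower in every KO library without passing (-0.24 ± 0.09 and -0.23 ± 0.11).

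Enolase makes phosphoenolpyruvate. ENO2, the isozyme known as neuron-specific enolase, was at 389.8, 409.6 and 431.7 CPM in WT and 252.9, 265.1 and 246.4 CPM in KO. The spread within each group was small beside the gap between them, and the gene fell by 0.69 ± 0.08 (edgeR adjusted p = 0.00127). ENO1, the isozyme of most tissues, measured 792, 659 and 805 CPM in WT and 628, 632 and 564 CPM in KO. Its value of -0.31 ± 0.10 did not pass (edgeR adjusted p = 0.103), although the groups did not overlap. PKM, the pyruvate kinase gene that ends the pathway, had a value above 0 (0.22 ± 0.12, edgeR adjusted p = 0.290).

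LDHA, whose subunit is known to favour lactate formation, measured 185, 165 and 200.5 CPM in WT and 87.3, 134 and 87.8 CPM in KO. KO replicates 1 and 3 were close together and KO replicate 2 stood between them and WT. The gene fell by 0.83 ± 0.18 (edgeR adjusted p = 0.0370). Without KO replicate 2 the adjusted p was 0.00193, and leaving out any one of the other 5 libraries ended the call. LDHB, whose subunit predominates in tissues that oxidise lactate, measured 999, 793 and 949 CPM in WT and 934, 869.5 and 819 CPM in KO, and the groups overlapped (-0.06 ± 0.10).

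Of the 17 glycolytic enzyme genes, 5 fell (29.4%, against 3.19% of all tested genes), 12 did not pass and none rose. Of the 17 values 15 were below 0, with a median of -0.228. For 10 of the genes every KO library was below every WT library, as for 14.8% of all tested genes. The summed level of the 17 genes nevertheless overlapped between groups: 8694, 8389 and 9707 CPM in WT and 8578, 8328 and 7800 CPM in KO. GAPDH alone, at 3356 to 4031 CPM, carried much of that sum. Many enzymes of this set, GAPDH, ALDOA, TPI1, PGK1, PGAM1, ENO1, LDHA and PKM among them, have processed pseudogenes or near-identical copies with which reads can be shared, so their levels are less certain than their folds' errors show.

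**Figure D2:**
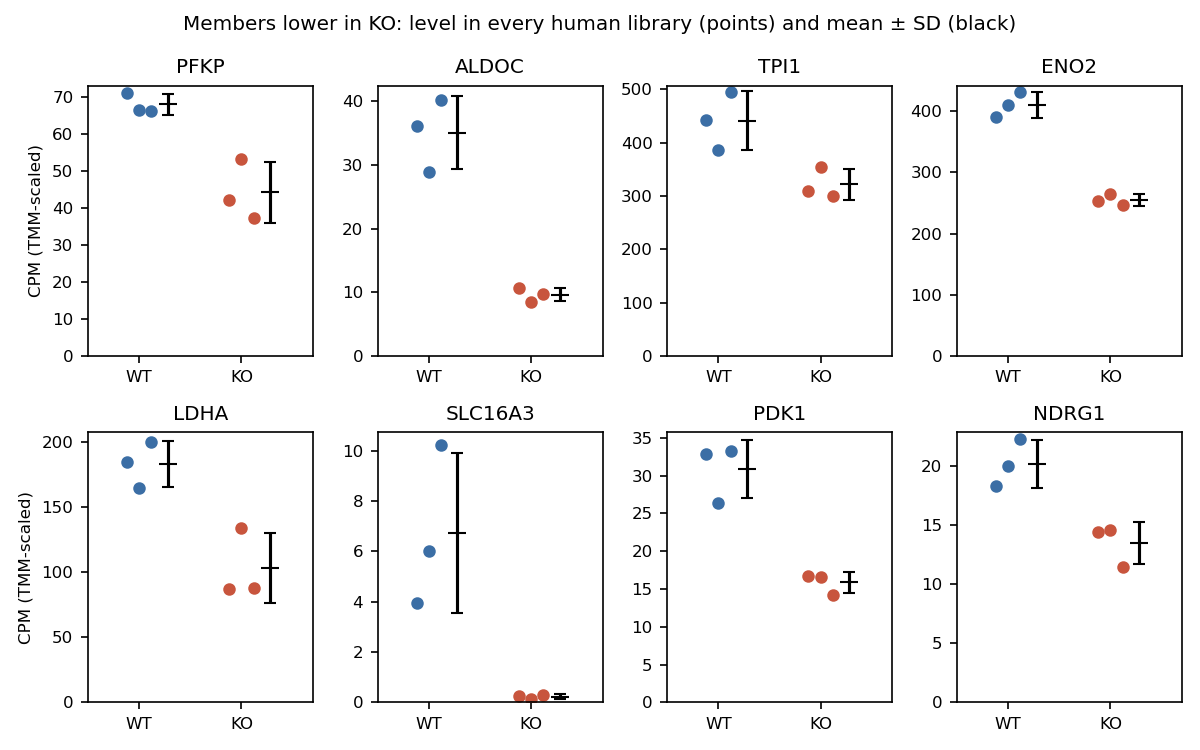
CPM of the 8 members called lower in KO, for the 3 WT (blue) and 3 KO (red) human libraries, with the mean ± SD of each group in black; every y axis starts at 0 and has its own range. In each of the 8 panels all KO libraries lie below all WT libraries, with the narrowest gap for its level in TPI1.

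Levels can be compared between genes only per length of transcript. In CPM per kilobase of annotated exon, GAPDH led the members in WT (1220 ± 115), followed by LDHB (306 ± 36.1), TPI1 (163 ± 20.3), ENO1 (142.5 ± 15.4), ALDOA (126 ± 8.60), PKM (108 ± 12.1) and ENO2 (95.9 ± 4.90; SD, n = 3). Neighbours from TPI1 to ENO2 differed by less than the sum of their SDs. LDHA ranked 11 of 39 at 29.6 ± 2.88 and ALDOC ranked 20 at 11.98 ± 1.96. At the low end were SLC16A3 (0.749 ± 0.355), CA9 (0.619 ± 0.222), EGLN3 (0.316 ± 0.00823) and ADM (0.190 ± 0.0983). The 8 genes that fell ranged from rank 3 (TPI1) to rank 36 (SLC16A3) in WT.

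The bifunctional PFKFB enzymes set the level of fructose 2,6-bisphosphate, the activator of phosphofructokinase. Neither PFKFB3 (0.27 ± 0.12) nor PFKFB4 (-0.18 ± 0.13) passed. Among the transporter genes, SLC16A3 encodes MCT4, the monocarboxylate transporter known for exporting lactate from glycolytic cells. It measured 3.95, 6.03 and 10.2 CPM in WT, from 61, 99 and 154 reads, and 0.260, 0.127 and 0.306 CPM in KO, from 4, 2 and 5 reads. The KO libraries were thus at about the level of 3 reads, and the WT libraries differed among themselves by more, relative to their mean, than those of any other called member. Summed over libraries, 314 reads stood against 11, a ratio of 28.3 (95% exact interval 15.6 to 57.3, counting error only), and edgeR gave log2 -4.81 ± 0.49 (adjusted p = 5.34e-04).

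SLC16A1, which encodes the widespread transporter MCT1, measured 50.7, 43.7 and 53.0 CPM in WT and 54.3, 46.6 and 59.6 CPM in KO (0.12 ± 0.12), with overlapping groups. The glucose transporter genes SLC2A1 (GLUT1) and SLC2A3 (GLUT3, the neuronal form) gave 0.17 ± 0.15 and -0.57 ± 0.17. SLC2A3 measured 20.4, 17.9 and 18.6 CPM in WT and 12.9, 10.0 and 15.2 CPM in KO. Its groups did not overlap, but the difference missed the threshold (edgeR adjusted p = 0.0746). DESeq2 called it at 0.0460.

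Pyruvate dehydrogenase kinases switch off the enzyme that feeds pyruvate into mitochondria. PDK1 measured 32.9, 26.4 and 33.2 CPM in WT and 16.8, 16.7 and 14.3 CPM in KO, a fall of 0.96 ± 0.13 (edgeR adjusted p = 0.00438). PDK3 was higher in every KO library, with 8.29, 7.01 and 7.43 CPM in WT and 10.7, 8.77 and 9.05 CPM in KO, but did not pass (0.33 ± 0.17, edgeR adjusted p = 0.285). Of the genes for pyruvate entry into mitochondria, MPC1, a subunit of the mitochondrial pyruvate carrier, rose from 24.1, 27.8 and 26.9 CPM to 39.7, 37.9 and 37.9 CPM (0.55 ± 0.10, edgeR adjusted p = 0.0156). It was the only one of 11 tested genes of that list to pass, and 9 of the 11 values were above 0.

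The 10 secreted and stress-response targets of the hypoxia pathway included 1 gene that fell. NDRG1, a stress-responsive gene known to be induced by hypoxia, measured 18.3, 20.0 and 22.3 CPM in WT and 14.4, 14.6 and 11.4 CPM in KO. Its fall of 0.58 ± 0.15 lay just inside the threshold (edgeR adjusted p = 0.0480). The angiogenic factor gene VEGFA measured 161.8, 100.3 and 118 CPM in WT and 98.0, 141 and 77.1 CPM in KO, with wide spread in both groups (-0.27 ± 0.28). The mitophagy receptor genes BNIP3 (-0.19 ± 0.13) and BNIP3L (-0.31 ± 0.08, edgeR adjusted p = 0.0608) did not pass. DDIT4, an inhibitor of mTOR signalling, the histone demethylase gene KDM3A, the MYC antagonist gene MXI1 and ANKRD37 lay between -0.07 and 0.12.

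CA9 and ADM were too low for the test. CA9, a carbonic anhydrase of the cell surface widely used as a marker of hypoxia, had 20, 10 and 18 reads in WT and 1, 1 and 0 in KO. That is 48 reads against 2, a ratio of 23.8 (95% exact interval 6.24 to 202, counting error only). ADM, which encodes the vasodilator adrenomedullin, had 12, 4 and 8 reads in WT and 0, 3 and 1 in KO, a ratio of 5.95 (2.05 to 23.6). Both genes were lower in every KO library than in any WT library, at levels where a single read moves the value. The authors' deposited table listed an adjusted p of 0.00468 for CA9 and none for ADM.

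The oxygen-dependent hydroxylases contained no called gene. EGLN1, the main HIF prolyl hydroxylase, measured 42.8, 44.0 and 49.6 CPM in WT and 54.3, 57.3 and 51.9 CPM in KO, all KO libraries being higher without the difference passing (0.26 ± 0.10, edgeR adjusted p = 0.142). EGLN3, a hydroxylase gene known to be strongly induced by hypoxia, was at 2.27, 2.32 and 2.39 CPM in WT and at 2.21, 4.39 and 2.02 CPM in KO, where replicate 2 stood apart. The collagen hydroxylase genes P4HA1 and P4HA2 gave -0.11 ± 0.12 and -0.40 ± 0.22.

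**Figure D3:**
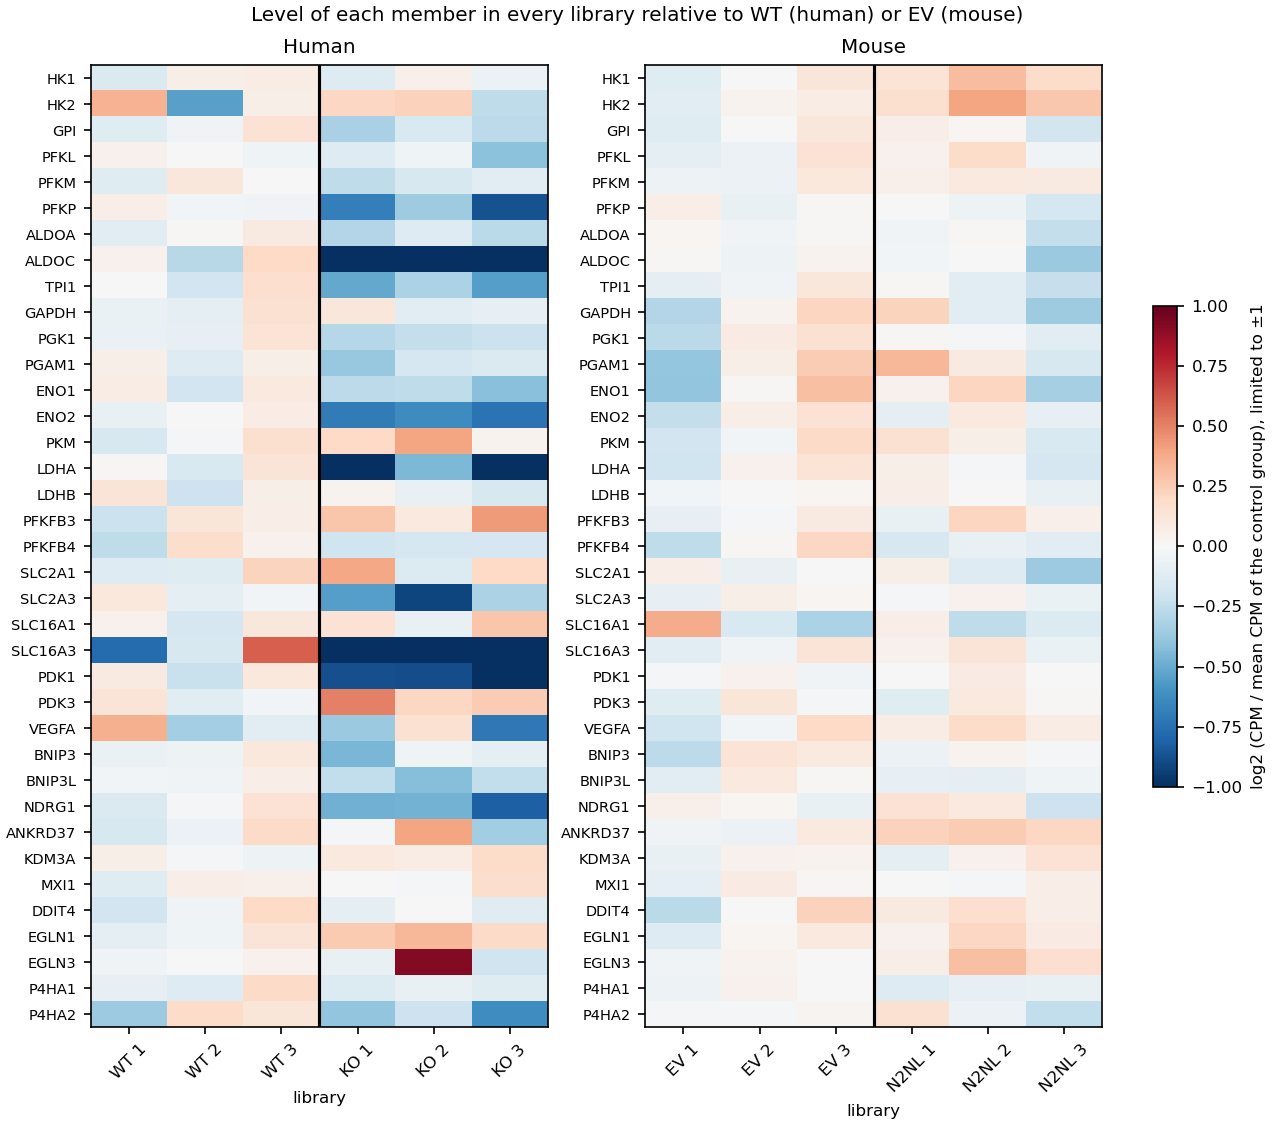
Level of each member tested in human, in each library, as log2 of its CPM over the mean of the control group (WT or EV). ADM and CA9 are left out of both panels, though they were tested in mouse. Colours are limited to a range of -1 to 1, rows are members and columns are libraries. Dark blue KO cells include those of ALDOC, LDHA, SLC16A3 and PDK1, with LDHA paler in KO 2. Some KO cells of SLC2A3, PFKP and NDRG1 are about as dark as those of PDK1. In mouse the colours are pale in both groups, and EV 1 is blue for most enzyme rows.

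The called members did not hold equally under small changes of the data, and calls near the threshold, such as NDRG1, TPI1 and LDHA, are the least certain. On simulated counts whose dispersion varied from gene to gene, edgeR made more false calls than the threshold allows. With trended dispersions the share of false calls was near the nominal level. Whether the false calls lay near the threshold was not examined. ALDOC, ENO2, PDK1 and SLC16A3 were called in all 6 fits that left out 1 library. PFKP and TPI1 were each called in 2 of the 6 (adjusted p 0.00988 to 0.117 and 0.0292 to 0.174), and LDHA and NDRG1 in 1 (0.00193 to 0.143 and 0.0280 to 0.191). The call of PFKP was kept without WT replicate 1 and without KO replicate 2, that of TPI1 without WT replicate 1 and without WT replicate 2, and that of NDRG1 without WT replicate 1. The member count was 4 without WT replicate 3, 4 without KO replicate 1 and 5 without KO replicate 3. The authors' deposited table called 10 members, all lower, of 38 with an adjusted p: the same 8 with SLC2A3 and CA9.

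Many of these genes belong to families in which 1 isozyme fell while its partner did not pass. The share of a family's reads that each member holds does not depend on how libraries are scaled. Where a family holds a called gene, its shares in part restate that fall. As a background for single genes, KO and WT did not overlap for 28.8% of all tested genes. No rate was computed for other gene families. In 8 of the 12 families the shares did not overlap between KO and WT. Each of those had an exact two-sided permutation p of 0.1, the smallest that 3 against 3 libraries can give, and 0.15 after adjustment over the 12 families, so no single family passes a test at this sample size. Without each library in turn, 8 or 9 families did not overlap. Leaving out a library cannot make separated groups overlap, so that count could not fall and is no check on the 8 families.

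PDK1 held 79.8, 79.0 and 81.7% of the reads of PDK1 and PDK3 in WT and 61.0, 65.5 and 61.2% in KO. That was the widest shift of the 12 families, at 17.6 percentage points. Families were made of members alone, so PDK2 was left out and these are not shares of all kinase reads. Likewise SLC2A12, SLC2A4, ENO3, SLC16A7 and PFKFB2 were left out of the families described below. PDK2 measured 35.2, 51.9 and 53.0 CPM in WT and 47.0, 55.6 and 50.8 CPM in KO, more than PDK1 in every library. LDHA held 16.8 ± 0.984% of lactate dehydrogenase reads in WT and 10.5 ± 2.53% in KO (SD, n = 3), the rest being LDHB. SLC16A3 held 11.8 ± 4.47 and 0.420 ± 0.129% of the reads of the monocarboxylate transporters. In all 3 families the called member held a smaller share in every KO library than in any WT library.

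SLC2A3 went from 17.6 ± 2.42 to 11.2 ± 1.49% of glucose transporter reads, ENO2 from 35.4 ± 2.72 to 29.6 ± 0.853% of enolase reads and ALDOC from 6.62 ± 0.995 to 2.25 ± 0.367% of aldolase reads. PFKP went from 16.6 ± 1.08 to 12.7 ± 1.6% and PFKFB4 from 38.5 ± 0.784 to 31.6 ± 2.5%. The shares of HK2, BNIP3, EGLN3 and P4HA2 overlapped between groups. ENO2 and SLC2A3 are known as the neuronal isozymes of their families.

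**Figure D4:**
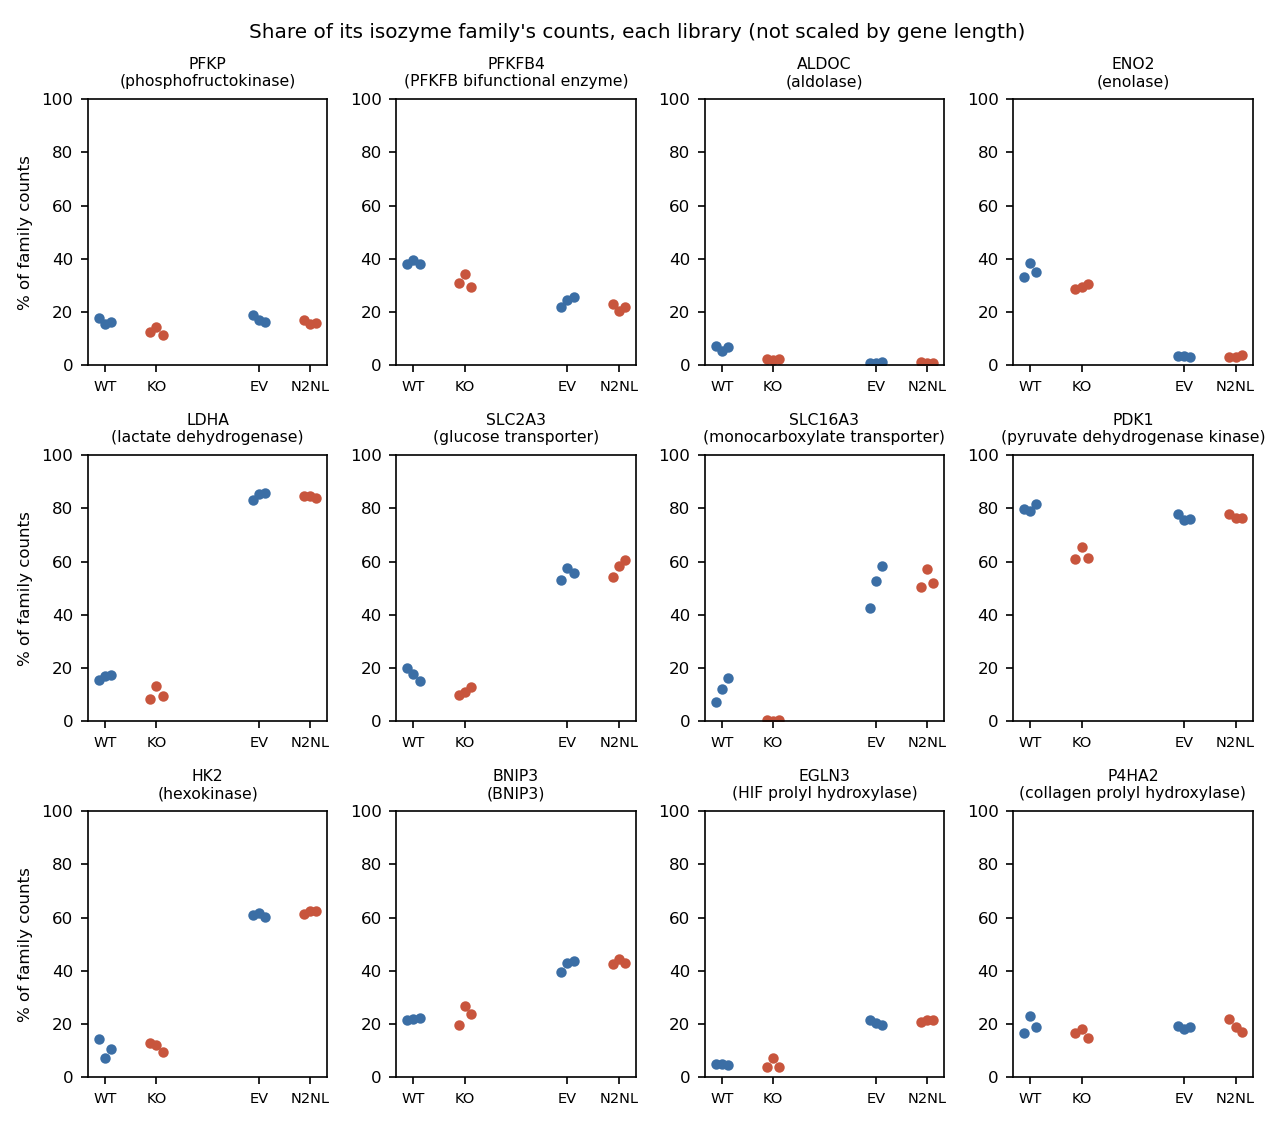
Percentage of its family's reads held by 1 member of each of the 12 isozyme families, for each human (WT, KO) and mouse (EV, N2NL) library; reads are not scaled by gene length. The 8 families in the upper 2 rows do not overlap between WT and KO, those in the bottom row do, and every mouse family overlaps between EV and N2NL.

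The wider pathway was described with lists of other genes. Of 29 other hypoxia-induced genes tested, 2 fell and none rose. That is 6.9%, or 1 gene more than the 3.19% of all tested genes would give. Their median was -0.19, and 11 of them were lower in every KO library, against 14.8% of all tested genes. PPFIA4, which encodes a liprin and is known as a hypoxia-induced gene, fell from 25.3, 27.1 and 25.7 CPM to 7.87, 12.6 and 5.69 CPM (-1.58 ± 0.25, edgeR adjusted p = 0.0117). WSB1, a ubiquitin ligase adaptor gene, fell from 745, 747 and 586 CPM to 462, 466 and 543 CPM (-0.50 ± 0.11, edgeR adjusted p = 0.0329). None of 11 genes of the HIF machinery passed. HIF1A, the oxygen-regulated subunit itself, had 91.0, 82.5 and 88.6 CPM in WT and 114, 91.7 and 109 CPM in KO (0.27 ± 0.10, edgeR adjusted p = 0.142). Its regulation is known to act mainly on the protein, which was not measured.

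TALDO1, transaldolase of the pentose phosphate pathway, which shares intermediates with glycolysis, rose from 127.5, 130.5 and 128 CPM to 160.0, 166 and 169 CPM (0.36 ± 0.07, edgeR adjusted p = 0.0232). The other 6 genes of that pathway did not pass. Nor did any of 12 other glycolytic isozyme and branch genes, or any of 13 genes of the ATF4 stress response.

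Some cell type markers also changed in the human comparison. Of 15 neuron genes 2 fell, TUBB3 (-0.52 ± 0.12, edgeR adjusted p = 0.0316) and MAPT (-0.37 ± 0.09, 0.0404), with a list median of -0.181. Of 13 radial glia genes 1 fell, TTYH1 (-0.48 ± 0.08, 0.00964), while 9 had values above 0 and the list median was 0.027. SLC1A3 of that list was higher in every KO library without passing (1.14 ± 0.26, 0.0660). Of 8 proliferation genes, with a list median of 0.319, CCNB1 rose (0.50 ± 0.11, edgeR adjusted p = 0.0269). Of 5 mesenchyme genes LUM fell (-2.04 ± 0.40, edgeR adjusted p = 0.0181) and PDGFRB rose (1.13 ± 0.25, 0.0402). LUM had a mean of 1.58 CPM in WT and 0.377 CPM in KO, and passed the filter only through its level in WT. Over all tested genes 3.19% fell and 2.31% rose. The summed neuron level was 5106 to 6534 CPM in WT and 4569 to 6706 CPM in KO, and the summed radial glia level 5508 to 5840 and 4553 to 5598 CPM. VIM carried much of the radial glia sum, with means of 2938 CPM in WT and 2389 CPM in KO. The 6 tested astroglia genes had no call, 4 of their values were below 0 and their median was -0.04. The sum over the list's 9 genes was 140 to 183 CPM in WT and 202 to 207 CPM in KO. GJA1 of that list had a mean of 40.3 CPM in WT and 91.2 CPM in KO, a wider rise than that of the mean sum (165 to 204.5 CPM). The 7 choroid plexus genes, none called, all had values above 0 (median 1.027) and summed to 288 to 2249 CPM in WT and 1480 to 4375 CPM in KO. TTR alone carried most of that sum, with means of 1151 CPM in WT and 2958 CPM in KO (1.36 ± 0.86) and overlapping groups. The 4 tested endothelium and blood genes, none called, also lay above 0 (median 0.99), at summed levels of 5.51 to 12.7 and 11.2 to 14.6 CPM. Mitochondrial transcripts made up 4.96 to 5.59% of WT counts and 5.91 to 6.23% of KO counts. The part of these differences in the members' values was not tested, and in bulk RNA fewer cells of a type and less RNA per cell cannot be told apart.

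In mouse organoids none of the 39 members was called between N2NL and EV by edgeR, nor by DESeq2. Over all 16682 tested genes 0.012% were called (2 genes), so few calls of any kind were made in this comparison. All 39 members passed the filter, and their log2 fold changes (N2NL minus EV) ran from -0.13 for SLC2A1 to 0.28 for HK2, with a median of -0.006, the same as over all genes, 17 above 0 and 22 below (48.3 and 51.7% of all genes). Of the members 2 had an unadjusted p under 0.05, as did 1240 of all tested genes. HK2, the inducible hexokinase gene, measured 88.2, 97.7 and 101 CPM in EV and 107, 125.5 and 115 CPM in N2NL (0.28 ± 0.08, edgeR adjusted p = 0.452). HK1 measured 56.2, 61.0 and 66.4 CPM in EV and 67.4, 76.0 and 69.6 CPM in N2NL (0.21 ± 0.08, edgeR adjusted p = 0.606).

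Neither hexokinase gene's groups overlapped, and the same was true of ANKRD37 and EGLN3, higher in N2NL, and of P4HA1, lower in N2NL. These 5 members were 12.8% of the 39, against 12.7% of all tested genes (7.39% higher and 5.31% lower). The 8 genes that fell in human KO had mouse values of -0.12 ± 0.11 (ALDOC), 0.04 ± 0.08 (SLC16A3), -0.02 ± 0.10 (ENO2), 0.02 ± 0.07 (PDK1), -0.08 ± 0.07 (PFKP), -0.04 ± 0.10 (LDHA), -0.11 ± 0.09 (TPI1) and 0.02 ± 0.09 (NDRG1). ALDOC, the member with the largest enzyme fold in human, measured 22.5, 21.5 and 22.9 CPM in EV and 21.9, 22.2 and 17.2 CPM in N2NL. SLC16A3 measured 169, 177 and 199 CPM in EV and 187, 199 and 173 CPM in N2NL, with full overlap.

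In the mouse organoids LDHA held 84.7 ± 1.36% of lactate dehydrogenase reads in EV, HK2 61.0 ± 0.641% of hexokinase reads, SLC16A3 51.1 ± 8.08% of monocarboxylate transporter reads and ENO2 3.39 ± 0.362% of enolase reads (SD, n = 3). These are shares of reads not scaled by gene length, and without mouse lengths they were not compared with the human shares. Between EV and N2NL none of the 12 families was free of overlap (lowest adjusted exact permutation p = 0.857). Leaving out 1 library gave up to 4 such families, with 4 without EV replicate 1, 3 without N2NL replicate 1 and 1 without either EV replicate 2 or EV replicate 3.

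Within the mouse groups the enzyme genes varied together. EV replicate 3 was the highest of its group for 15 of the 17 enzyme genes and EV replicate 1 the lowest for 13, while N2NL replicate 3 was the lowest of its group for 13. Over all tested genes the same libraries took those places for 36.6, 37.7 and 35.9%. The 17 genes made up 1.37, 1.58 and 1.75% of counts in EV and 1.65, 1.58 and 1.35% in N2NL. The range within EV was nearly as wide as that over both groups together, and the range within N2NL was narrower. GAPDH measured 2801, 3514 and 3996 CPM in EV and 4002, 3203 and 2692 CPM in N2NL, where the N2NL libraries held both the highest and the lowest value. In human the same pattern was milder: WT replicate 3 was the highest of its group for 12 of 17 enzyme genes and KO replicate 2 for 11, against 27.0 and 33.5% of all tested genes.

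**Figure D5:**
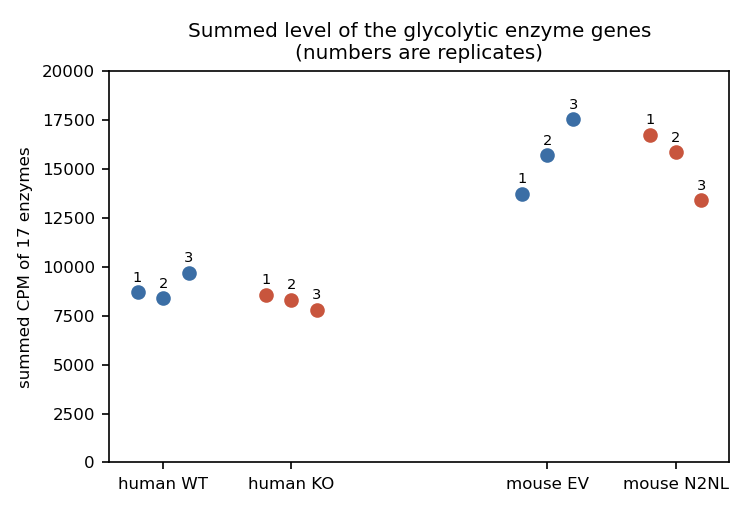
Summed CPM of the 17 glycolytic enzyme genes in each library, by group, with the replicate number above each point; the y axis starts at 0. In mouse the EV libraries span 13740 to 17540 CPM and the N2NL libraries 13420 to 16760 CPM. The human groups overlap between 8389 and 8578 CPM.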

How the data were processed

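Trimmomatic 0.36, STAR 2.4.0, Bowtie2 2.3.3.1, HTSeq and DESeq2 2.11.39, with builds hg38 and mm10, are named without roles in the submitters' processing notes; the RNA-seq kit was strand-specific per the labels' protocols, and no label states the strand setting of the counting. The authors deposited raw read counts per gene, 1 column per pool. Their deposited comparison tables give log2 fold changes and adjusted p-values, and a normalized score per library that was used for NOTCH2NL alone. In mouse 26.64 to 33.67% of reads stood in a line for alignments that were not unique, and lines naming no gene were left out.

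Counts were fitted with edgeR 4.0.16 in R 4.3.3 (TMM factors, filterByExpr, robust quasi-likelihood F test), separately by species, and adjusted over all genes tested. The standard error is the log2 fold change over the square root of F. CPM use TMM-scaled totals of the tested genes; human lengths are unions of GENCODE 29 exons (GRCh38), and no mouse lengths were used. DESeq2 1.42.0 and the other settings are compared in the closing section. Scripts were tested on simulated data, where the share of false calls was above the nominal level with gene-wise dispersions and near it with trended ones. Members and lists were chosen with earlier results of these data known; mouse names were matched by hand from gene descriptions, with 5 of 215 list genes unmatched. Genes given with the value in every library were those past the threshold or with a log2 change of at least 1, with their isozymes; others with such values were chosen after their values were seen. From each pathway list up to 4 called genes were named. The sequences shown were also chosen after the values were seen.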

Additional observations from a re-analysis of the deposited data

How the results depend on the processing

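All human member calls were falls under each setting tried. The count of 8 was 6 with library size alone (LDHA at the threshold itself and NDRG1 at 0.0580 missing it), 8 with DESeq2's size factors or a stricter filter, 10 with DESeq2 and 12 with no filter, where ENO1, BNIP3L, SLC2A3 and CA9 joined. Without 1 library it ran from 4 to 7, CA9 joining in 3 of the 6 fits. With the replicate number as a block it was 5, LDHA, NDRG1 and TPI1 missing the threshold (0.0768, 0.0783 and 0.0731). The numbers do not pair the libraries: deviations of same-numbered libraries correlated at 0.216, -0.113 and 0.126 in human and at 0.143, 0.016 and -0.005 in mouse. Mouse members gave 0 calls in each setting, while calls over all mouse genes went from 2 to 30 with DESeq2 (25 higher, 5 lower), 117 with no filter and 21 with the replicate block. In human the calls over all genes were 932, 2155 with no filter and 224 (without WT replicate 3) to 1440 (without WT replicate 1) without 1 library. Mouse isozyme families without overlap numbered 0, 0 to 4 without 1 library and 4 by within-number differences under the replicate block; human families numbered 8 there and per kilobase. No per-kilobase value was computed in mouse, for lack of lengths.

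Signs changed 64 times, in 8 human and 23 mouse members, none of them called (adjusted p at least 0.751). Without 1 library, human log2 fold changes ran from -0.111 to 0.013 for HK1, -0.124 to 0.292 for HK2, -0.082 to 0.058 for GAPDH, -0.149 to 0.005 for LDHB, -0.168 to 0.210 for ANKRD37, -0.011 to 0.097 for MXI1, -0.155 to 0.046 for DDIT4 and -0.134 to 0.507 for EGLN3. Mouse values ran from -0.084 to 0.045 for GPI, -0.225 to 0.071 for GAPDH, -0.152 to 0.055 for PGK1, -0.062 to 0.254 for PGAM1, -0.170 to 0.179 for ENO1, -0.127 to 0.061 for ENO2, -0.063 to 0.138 for PKM, -0.130 to 0.040 for LDHA, -0.040 to 0.033 for LDHB, -0.012 to 0.131 for PFKFB3, -0.227 to 0.001 for PFKFB4, -0.051 to 0.019 for SLC2A3, -0.230 to 0.129 for SLC16A1, -0.013 to 0.114 for SLC16A3, -0.005 to 0.049 for PDK1, -0.057 to 0.061 for PDK3, -0.128 to 0.058 for BNIP3, -0.047 to 0.123 for NDRG1, -0.153 to 0.054 for CA9, -0.024 to 0.091 for KDM3A, -0.027 to 0.063 for MXI1, -0.012 to 0.242 for DDIT4 and -0.149 to 0.054 for P4HA2. In other settings signs changed for human GAPDH (0.006 with library size alone) and mouse ENO1 (0.006 with the replicate block), LDHB (0.002 with no filter, 0.000 with the stricter one) and PDK3 (0.001 with no filter). The cause was not tested.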
